A study of Mus musculus with 2 samples.

Results

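Oxidative phosphorylation genes encode the respiratory chain and the ATP synthase of mitochondria, and here they were taken as every gene whose symbol starts with Nduf, Sdh, Uqcr, Cox4 to Cox8, Atp5 or mt-. Assembly genes of the Ndufaf family and symbols ending in -ps were left out. The rule found 102 of the 32285 genes in both count matrices, of which 89 lie in the nuclear genome and 13 in the mitochondrial genome. Of the nuclear members, 38 belong by symbol to complex I, 8 to complex II, 8 to complex III, 18 to complex IV and 17 to complex V. The 13 mitochondrial members are 7 genes of complex I, 1 of complex III, 3 of complex IV and 2 of complex V. The complex II count includes the assembly factors Sdhaf1, Sdhaf2, Sdhaf3 and Sdhaf4, and Ndufa4 was counted under complex I by its symbol although its protein is now assigned to complex IV. For 3 members, Cox7b2, Cox8b and Cox8c, no UMI was counted in either library.

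Single-cell RNA sequencing was run on live CD45-positive leukocytes sorted from orthotopic liver tumours of the mouse hepatoma line Hepa1-6. The hosts were wild-type C57/BL6 mice given either an antibody against PD-1, an inhibitory receptor of T cells, or an isotype control antibody (IgG). Each treatment is 1 library, and the sources used here do not give the number of mice behind each. The comparison therefore sets 1 library against the other, without a replicate check, and no p-value was computed. The anti-PD-1 library held 10149 barcodes and 72148493 UMIs, and the isotype library 9683 barcodes and 67520433 UMIs. After filtering, 9719 anti-PD-1 cells and 9263 isotype cells remained, with medians of 6308 and 6112 UMIs per cell. The libraries had 140 barcode sequences in common. Cells were sorted into 13 gates by UMIs of marker genes, none of which is an oxidative phosphorylation gene. All markers of each gate's own list had UMIs in that gate in both libraries, except Ly6c2, which the rule of the Ly6c2-negative monocyte gate excludes. The gates were set by these markers, so this is not a separate check of cell type. The gates left 14.7% of anti-PD-1 cells and 14.3% of isotype cells without a type.

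Electrons from NADH enter the chain at complex I and those from succinate at complex II, pass through complex III and cytochrome c to complex IV, and reduce oxygen there. Complexes I, III and IV pump protons across the inner membrane, and complex V, the ATP synthase, uses the gradient to make ATP. Complexes I, III, IV and V are built from subunits of both genomes, whereas complex II is wholly nuclear-encoded, and the mitochondrial subunits all sit in the membrane parts of these complexes. Mature neutrophils hold few mitochondria and rely mainly on glycolysis, while tissue macrophages and dividing lymphocytes are known for a larger use of respiration.

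Promoters of the nuclear members are shown for Atp5k, a subunit of complex V that was lower in the anti-PD-1 library in most cell types, for Cox6a1, the common partner of the restricted form Cox6a2, and for the Cox7a pair, in which Cox7a1 is restricted and Cox7a2 is common. Each is a window of 300 bases, with 250 before the start and 50 after it, 5′ to 3′ on the gene's strand, from RefSeq on build GRCm38.p6. The windows are Atp5k at chr5:108434350-108434649 on the minus strand, Cox6a1 at chr5:115348909-115349208 on the minus strand, Cox7a1 at chr7:30183921-30184220 on the plus strand and Cox7a2 at chr9:79759804-79760103 on the minus strand. Capitals mark matches, on either strand, to the letters GCGCATGCG of the NRF1 motif, whose matches on the 2 strands can overlap, and to the letters CCGGAAG of the ETS motif, which read as CTTCCGG on the opposite strand.
Atp5k: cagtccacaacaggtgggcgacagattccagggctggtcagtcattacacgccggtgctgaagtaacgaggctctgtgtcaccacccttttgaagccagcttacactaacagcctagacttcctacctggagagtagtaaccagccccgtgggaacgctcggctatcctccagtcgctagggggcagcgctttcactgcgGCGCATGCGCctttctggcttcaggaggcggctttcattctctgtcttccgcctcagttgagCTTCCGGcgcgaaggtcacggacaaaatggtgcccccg
Cox6a1: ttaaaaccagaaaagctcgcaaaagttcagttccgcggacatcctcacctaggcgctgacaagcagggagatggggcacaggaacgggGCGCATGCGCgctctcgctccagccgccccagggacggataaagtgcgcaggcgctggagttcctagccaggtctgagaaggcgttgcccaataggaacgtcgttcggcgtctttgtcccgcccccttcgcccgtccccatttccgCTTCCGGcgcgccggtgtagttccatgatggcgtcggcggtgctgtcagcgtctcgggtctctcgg
Cox7a1: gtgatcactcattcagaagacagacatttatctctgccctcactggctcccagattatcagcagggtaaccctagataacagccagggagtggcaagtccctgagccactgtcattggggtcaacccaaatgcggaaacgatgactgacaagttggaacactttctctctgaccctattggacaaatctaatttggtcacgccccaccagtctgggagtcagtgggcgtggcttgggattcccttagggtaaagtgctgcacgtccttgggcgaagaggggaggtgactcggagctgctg
Cox7a2: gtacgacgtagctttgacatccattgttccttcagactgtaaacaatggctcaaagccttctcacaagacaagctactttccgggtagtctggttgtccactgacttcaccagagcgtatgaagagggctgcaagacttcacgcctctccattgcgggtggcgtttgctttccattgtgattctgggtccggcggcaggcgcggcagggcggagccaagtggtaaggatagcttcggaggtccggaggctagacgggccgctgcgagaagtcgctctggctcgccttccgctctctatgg

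NRF1 and the ETS-family factor GABP are known activators of nuclear genes for the respiratory chain. The window was found for 72 of the 89 nuclear members. GCGCATGCG was present in 8 of the 72 (11.1%), against 1.95% of 27025 genes with a window. The letters CCGGAAG were present in 20 members (27.8%), against 9.93% of all genes, and the letters AAGATGGCG of the YY1 motif in 7 (9.72%), against 1.64%. Atp5k and Cox6a1 hold an NRF1 and an ETS match each, and neither Cox7a window holds any of the 3 motifs. A match describes the letters in the window and was not read as a bound site.

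Across cell types, the nuclear members took 2.58% of all UMIs in the macrophage gate of the anti-PD-1 library (95% exact binomial interval 2.58 to 2.59) and 2.76% in the isotype gate (2.75 to 2.77). All intervals here cover counting error only, not the spread between mice. T cells had 2.49% in each library. Classical monocytes stood at 2.34% and 2.55%, conventional type 1 dendritic cells (cDC1) at 2.31% and 2.49%, and non-classical monocytes at 2.20% and 2.39%, in the anti-PD-1 and the isotype library. Ly6c2-negative monocytes, plasmacytoid dendritic cells (pDC), natural killer cells and conventional type 2 dendritic cells (cDC2) lay between 2.09% and 2.17% under anti-PD-1 and between 2.28% and 2.37% under isotype. Migratory dendritic cells had 1.85% and 1.95%, B cells 1.78% and 1.97%, and immature neutrophils 1.29% and 1.37%. Neutrophils were lowest, at 0.786% (0.779 to 0.794) under anti-PD-1 and 0.948% (0.940 to 0.957) under isotype. Macrophages were first and neutrophils last in both libraries. T cells were the second gate under anti-PD-1, and under isotype they stood behind classical monocytes and level with cDC1. These are shares of the pooled UMIs of a gate, not amounts per cell. The median T cell had 2.249% under anti-PD-1 and 2.275% under isotype, below the median macrophage, classical monocyte and cDC1 of its library. Under isotype the medians of pDC, non-classical monocytes, cDC2 and Ly6c2-negative monocytes also lay above that of T cells.

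The mitochondrial members ordered the gates differently. In pooled UMIs they were highest in pDC, with 1.54% under anti-PD-1 and 1.80% under isotype. Macrophages followed with 1.42% and 1.44% and B cells with 1.37% and 1.38%. The order differed in the median cell. There B cells, 47 and 46 in number, had 1.745% and 1.503%, pDC 1.612% and 1.775%, and macrophages 1.384% and 1.393%. T cells, near the top for nuclear members in pooled UMIs, had 1.04% and 1.12% of pooled UMIs, and cDC1 had 0.911% and 1.00%. Neutrophils again stood lowest, at 0.468% and 0.483%. Over the 13 gates, Spearman's rho between the nuclear and the mitochondrial share was 0.40 under anti-PD-1 and 0.57 under isotype, and over the 8 gates with at least 100 cells in each library it was 0.74 and 0.79. These are descriptions over gates that share a library and a total. Cells with over 10% of UMIs from mitochondrial genes had been left out, which caps this measure.

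**Figure D1:**
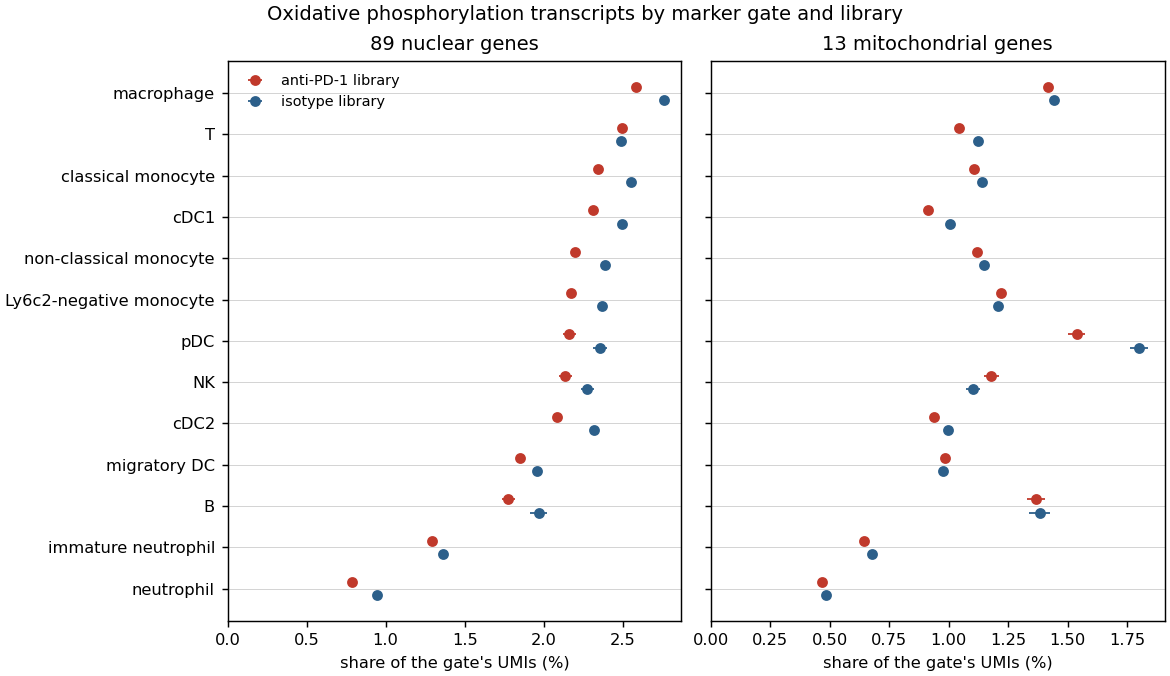
Share of all UMIs (percent) taken by nuclear members and by mitochondrial members in each of 13 marker gates, anti-PD-1 and isotype library side by side, with exact 95% binomial intervals. Neutrophils stand lowest for both sets, macrophages lead the nuclear members and pDC the mitochondrial ones.

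The number of mitochondrial UMIs per nuclear member UMI, which does not depend on the other genes of a cell, was 0.770 (0.741 to 0.799) in B cells of the anti-PD-1 library and 0.702 (0.673 to 0.732) in those of the isotype library. It was 0.712 and 0.764 in pDC, and no other gate passed 0.6 in either library. The lowest gate in both libraries was cDC1, with 0.394 and 0.402. T cells had 0.418 (0.414 to 0.423) and 0.451 (0.446 to 0.457), the second lowest ratio under anti-PD-1, while under isotype cDC2, with 0.429, and classical monocytes, with 0.446, lay below them. Macrophages had 0.549 and 0.522. Neutrophils, although lowest in both sets, had a ratio of 0.595 under anti-PD-1 and 0.510 under isotype, from pooled UMIs. Their pooled mitochondrial shares, 0.468% and 0.483%, lay above the upper quartile of single neutrophils, 0.440% and 0.475%. The median neutrophil had 0.215% mitochondrial and 0.66% nuclear member UMIs under anti-PD-1, and 0.226% and 0.75% under isotype. By complex, there were 1.13 and 1.08 mitochondrial UMIs of complex IV per nuclear one in macrophages and 0.970 and 1.02 in T cells. Over the 13 gates this ratio ran from 0.930 in cDC1 to 1.85 in B cells under anti-PD-1, and from 0.914 in neutrophils to 1.69 in B cells under isotype. For complex V the ratio was 0.225 and 0.205 in macrophages and 0.163 and 0.180 in T cells. Complex I gave 0.374 and 0.375 in macrophages and 0.280 and 0.303 in T cells.

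Among the mitochondrial members, mt-Co1, which encodes the catalytic subunit of complex IV, was counted at 3180 UMIs per 1000000 (CPM) over all anti-PD-1 cells and 3374 CPM over all isotype cells. It made up between 27.1% and 33.4% of the mitochondrial UMIs in the 12 gates other than immature neutrophils, and 35.9% and 33.8% in immature neutrophils. mt-Co3, another complex IV subunit, was at 1792 and 1797 CPM. mt-Nd3, a complex I subunit, was at 38.7 CPM under anti-PD-1 and 58.3 CPM under isotype. In macrophages it was 57.0 and 87.2 CPM, a log2 ratio of -0.61 (-0.74 to -0.49), in T cells 39.2 and 55.9 CPM, and in neutrophils it was counted 91 and 151 times. It was lower in the anti-PD-1 library in all 11 gates with at least 50 UMIs of it, with ratios between -0.99 and -0.32. mt-Atp8, a membrane subunit of complex V, moved the other way in macrophages, with 501 and 436 CPM, a log2 ratio of 0.20 (0.15 to 0.25). In neutrophils it had 188 and 154 CPM, a log2 ratio of 0.29 (0.15 to 0.43), while in T cells, with 436 and 443 CPM, the interval included 0. The gene of mt-Atp8 overlaps that of mt-Atp6, and mt-Nd4l overlaps mt-Nd4, so the split of reads within these pairs is uncertain.

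The share of complex IV in the nuclear UMIs was largest in neutrophils among the 13 gates of each library. Complex IV took 35.6% of nuclear member UMIs in anti-PD-1 neutrophils and 34.5% in isotype neutrophils, against 28.6% and 28.5% in macrophages and 25.1% and 25.7% in T cells. Complex I took 23.0% and 23.7% in neutrophils, against 27.2% and 26.8% in macrophages. Complex V took 36.3% and 34.9% in T cells and 30.2% and 30.5% in neutrophils. Complex II, with 8 genes, took 2.72% and 2.41% in T cells, 2.13% and 1.96% in macrophages and 2.69% and 2.49% in neutrophils, and its share was higher in the anti-PD-1 library in each of the 13 gates.

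The members with most UMIs in each complex give the scale, in CPM over all kept cells. Each molecule yields 1 tag at its 3′ end, so no scaling by length was applied. In complex I these were the accessory subunits Ndufa6, with 357 CPM in the anti-PD-1 and 412 CPM in the isotype library, and Ndufa13, with 309 and 332 CPM. In complex II they were the iron-sulphur subunit Sdhb, with 171 and 150 CPM, and the membrane anchor Sdhd, with 125 and 120 CPM. In complex III they were the hinge protein Uqcrh, with 524 and 569 CPM, and Uqcrq, with 376 and 439 CPM. In complex IV they were Cox8a, with 1204 and 1311 CPM, and Cox4i1, with 1129 and 1127 CPM. In complex V they were the epsilon subunit Atp5e, with 751 and 952 CPM, and subunit g, Atp5l, with 673 and 768 CPM. Of these 10, the 2 complex II genes and Cox4i1 were at or above their isotype level in the anti-PD-1 library, and the other 7 were below it.

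Neutrophils and macrophages are the largest gates, with 2273 and 2402 neutrophils and 1703 and 1643 macrophages in the anti-PD-1 and the isotype library. Neutrophils carried far fewer UMIs per cell, with medians of 2001 and 1845, against 7716 and 8827 in macrophages, and all levels below are in CPM. In the anti-PD-1 library all 84 nuclear members with at least 50 UMIs over both gates were lower in neutrophils, 82 of them by more than 0.5 on the log2 scale, the size used here to call a difference. Among all 9229 genes counted, 59% were lower by that size. In the isotype library all 85 were lower and 81 passed the size, against 57.6% of 9334 genes. The median log2 ratio of the nuclear members was -2.12 and -1.95, that of the 13 mitochondrial members -1.69 and -1.61, and that of all genes -0.90 and -0.80. Cytosolic ribosomal protein genes fell as far, with medians of -2.40 and -2.13 and 83 and 84 of 88 lower by more than 0.5. The 13 mitochondrial members were each lower in both libraries. These ratios come from pooled UMIs. In the median cell of the anti-PD-1 and the isotype library, nuclear members took 0.66% and 0.75% of UMIs in neutrophils, against 2.53% and 2.69% in macrophages. Mitochondrial members took 0.215% and 0.226%, against 1.38% and 1.39%, so by that measure they fell further than the nuclear ones.

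The drop was uneven between members. Ndufa5, an accessory subunit of complex I, was at 3.16 CPM in anti-PD-1 neutrophils and 89.5 CPM in anti-PD-1 macrophages, a log2 ratio of -4.82, and at 7.19 and 104.5 CPM in the isotype library, a ratio of -3.86. Ndufa9, another complex I subunit, had ratios of -3.89 and -2.51, and Ndufc2, in the membrane arm, of -3.73 and -2.98. Sdhaf4, an assembly factor of complex II, had -5.02 under anti-PD-1 and -2.77 under isotype, which rest on 5 and 18 neutrophil UMIs. Atp5g1, Atp5g2 and Atp5g3 encode the same mature subunit c of the ATP synthase. Atp5g1 was at 38.8 and 46.9 CPM in neutrophils, against 467 and 469 CPM in macrophages. Atp5g2 was at 74.7 and 96.1 CPM in neutrophils, against 641 and 667 CPM in macrophages, and Atp5g3 at 98.8 and 119 CPM, against 739 and 723 CPM.

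Other members differed less between the gates. Cox8a, the small complex IV subunit, was at 1089 CPM in anti-PD-1 neutrophils and 1369 CPM in anti-PD-1 macrophages, a log2 ratio of -0.33 (-0.37 to -0.29), and at 1255 and 1430 CPM in the isotype library, a ratio of -0.19 (-0.23 to -0.15). Ndufa7 of complex I had ratios of -0.58 (-0.68 to -0.49) and -0.41 (-0.50 to -0.33). For the assembly factor Sdhaf2 the ratios were -0.06 (-0.33 to 0.21) and -0.20 (-0.48 to 0.08), with intervals that include 0. Cox4i1, the common form of the largest nuclear complex IV subunit, was at 403 and 437 CPM in neutrophils, against 1298 and 1299 CPM in macrophages. The catalytic beta subunit of the ATP synthase, Atp5b, had ratios of -1.74 and -1.69.

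**Figure D2:**
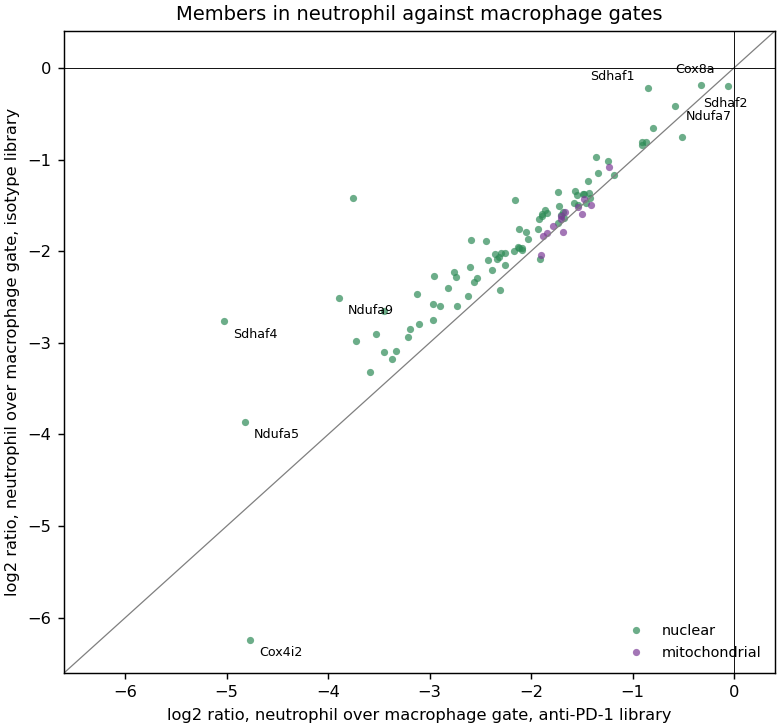
Log2 ratio of CPM, neutrophil gate over macrophage gate, under anti-PD-1 (horizontal axis) and under isotype (vertical axis), 1 point per member with at least 50 UMIs, with the line of equal ratios. Points spread from near 0 (Cox8a, Sdhaf2) to -4.82 under anti-PD-1 and -3.86 under isotype (Ndufa5) and to -5.02 and -2.77 (Sdhaf4), and the mitochondrial members lie between -2.04 and -1.08. Cox4i2 had 0 UMIs in anti-PD-1 neutrophils and is drawn there at 3 counts, and its isotype value rests on 1 UMI.

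Other mitochondrial genes were lower in neutrophils too. Of 89 genes for mitochondrial DNA expression counted, a list of mitochondrial ribosomal proteins and transcription factors, 84 under anti-PD-1 and 85 under isotype were lower by more than 0.5, with median ratios of -2.50 and -2.15. All 13 tricarboxylic acid cycle genes were lower by that size in both, with medians of -1.76 and -1.85. Of the regulators of mitochondrial biogenesis, 3 of 8 were lower by that size in each library, with medians of -0.06 and -0.24. Among all genes counted, 59% and 57.6% were lower by that size, a larger share than among these regulators. Macrophage markers summed to 85.6 CPM in the neutrophil gate of the anti-PD-1 library and 67.1 CPM in that of the isotype library, against 6573 and 6236 CPM in the macrophage gate. All 5 markers of immature neutrophils had a UMI in the anti-PD-1 neutrophil gate and 4 of 5 in the isotype one, where Fcnb was at 0. They summed to 170 and 76.6 CPM, and their part in these values was not tested.

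Within the neutrophil lineage the members differed by maturity markers. Immature neutrophils, gated on granule genes such as Ngp and Camp, numbered 76 and 108 cells. They had medians of 9644 and 10828 UMIs per cell, against 2001 and 1845 in mature neutrophils, so depth differs between the gates. Over mature neutrophils their nuclear members had a median log2 ratio of 1.06 in the anti-PD-1 and 0.93 in the isotype library. Past 0.5 higher were 59 of 77 and 54 of 79 members, against 34% and 32.6% of all genes. The median was -0.05 and -0.06 over all genes and 1.16 and 0.605 over cytosolic ribosomal protein genes. Mitochondrial members of the immature cells had sums of 0.643% and 0.675% of UMIs. Ndufa5 and Ndufa11 of complex I and Ndufa4 had the largest rises among members counted in both libraries, with 3.62 and 2.83 for Ndufa5, 2.56 and 2.39 for Ndufa11 and 2.37 and 2.15 for Ndufa4. Members lower in immature cells by over 0.5 in both libraries included Sdhaf1, with -1.55 and -1.92, Atp5md, a small ATP synthase subunit, with -1.16 and -0.85, and Ndufa7, with -0.83 and -0.82.

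Neutrophils without a UMI of Retnlg, a gene of circulating mature neutrophils, were set against those with one. Retnlg-negative cells numbered 867 and 1000 and had medians of 1728 and 1630 UMIs, and Retnlg-positive cells numbered 1406 and 1402 with medians of 2181 and 2036, so depth differs across the split. Nuclear members took 0.933% and 1.18% of UMIs in Retnlg-negative cells of the anti-PD-1 and the isotype library, against 0.714% and 0.812% in Retnlg-positive cells. The median member ratio was 0.47 and 0.74, against 0.24 and 0.33 over all genes and 0.47 and 0.73 over cytosolic ribosomal protein genes. Past 0.5 higher were 34 of 76 and 52 of 77 members, against 30.8% and 38.7% of all genes. Sdhaf1, an assembly factor that brings iron-sulphur clusters to Sdhb, was higher by 2.35 (1.71 to 3.03) and 1.85 (1.34 to 2.37), and Atp5g1 by 1.05 and 1.96. mt-Co1 differed by -0.21 under anti-PD-1 and by 0.07 under isotype.

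Dividing T cells were compared with other T cells of the same library. Cells with UMIs of at least 2 of 5 cycling markers numbered 150 of 544 anti-PD-1 T cells and 85 of 476 isotype T cells, with medians of 15943 and 13402 UMIs, against 6018 and 5548 in non-cycling T cells. Nuclear members took 2.76% and 2.83% of UMIs in cycling T cells and 2.25% and 2.32% in non-cycling ones. Mitochondrial members took 0.969% and 1.09% in cycling T cells and 1.11% and 1.14% in non-cycling ones. There were thus 0.351 and 0.385 mitochondrial UMIs per nuclear one in cycling T cells, against 0.495 and 0.493 in non-cycling cells. Of 80 nuclear members counted, 68 in the anti-PD-1 and 73 in the isotype library were above 0. The other 12 and 7 were below 0, against 51.2% and 47.4% of all genes. Past 0.5 higher were 29 and 21 nuclear members, against 20.9% and 21.3% of all genes. Their median ratio was 0.38 and 0.35, that of all genes -0.02 and 0.03, and that of the mitochondrial members -0.12 and -0.00.

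Ndufab1, the mitochondrial acyl carrier protein that also sits in complex I, was higher in cycling T cells by 1.11 (0.91 to 1.32) under anti-PD-1 and 1.12 (0.86 to 1.37) under isotype. Atp5b was higher by 0.74 and 0.78, Ndufa12 by 0.76 and 0.61, and Atp5g1 by 0.72 and 0.57. Uqcrh was lower in cycling T cells, with log2 ratios of -0.56 (-0.66 to -0.47) and -0.48 (-0.59 to -0.36), as was Ndufa6, with -0.43 and -0.54. mt-Co1 had ratios of -0.44 (-0.49 to -0.40) and -0.26 (-0.31 to -0.20). Of the genes for mitochondrial DNA expression, 47 of 85 under anti-PD-1 and 44 of 79 under isotype were past 0.5 higher. The shares over all genes were 20.9% and 21.3%.

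Between the libraries, the nuclear sum differed most in neutrophils. It was 0.786% in anti-PD-1 neutrophils and 0.948% in isotype neutrophils, a log2 ratio of -0.27 (-0.29 to -0.25). In classical monocytes the ratio was -0.12 (-0.13 to -0.11), in Ly6c2-negative monocytes -0.13 (-0.14 to -0.11), in cDC2 -0.15 (-0.17 to -0.14) and in macrophages -0.10 (-0.10 to -0.09). In T cells it was 0.001 (-0.01 to 0.01). The mitochondrial sum gave -0.05 (-0.07 to -0.02) in neutrophils, -0.02 (-0.03 to -0.02) in macrophages, -0.11 (-0.13 to -0.09) in T cells and -0.23 (-0.27 to -0.18) in pDC, whereas natural killer cells had 0.10 (0.04 to 0.15). The mitochondrial ratio of neutrophils turned positive with clusters (0.104) or stricter gates (0.010), and that of macrophages with a mean over cells (0.022) or after thinning (0.007). Ribosomal protein genes, which encode the cytosolic ribosome and took 3.67% and 4.92% of neutrophil UMIs, had a sum ratio of -0.42 there, -0.18 in macrophages and -0.14 in T cells. Their part in the shares of other genes was not tested.

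Gene by gene, 72 of 79 nuclear members counted in neutrophils were lower under anti-PD-1 than under isotype, against 48.9% of all 6595 genes counted. Of the members, 19 passed 0.5 lower, against 8.28% of all genes. None passed 0.5 higher, against 4.79% of all genes. The median member ratio was -0.30, that of all genes 0.01 and that of ribosomal protein genes -0.44. The mitochondrial members had a median of -0.05, and 1 of 13, mt-Nd3, passed 0.5 lower. Of the 19, 15 belong by symbol to complex I, the largest set, with 38 of the 89 nuclear members. Ndufa9 was counted 20 times in anti-PD-1 neutrophils (3.95 CPM) and 55 times in isotype neutrophils (10.7 CPM), a log2 ratio of -1.44 (-2.25 to -0.67). Ndufa5 had 16 UMIs (3.16 CPM) and 37 UMIs (7.19 CPM), a ratio of -1.19 (-2.13 to -0.30). Ndufc2, with 94 and 162 UMIs, had -0.76, and Ndufb5, with 105 and 178 UMIs, had -0.74.

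The other 4 were Uqcr11, Cox7c, Atp5mpl and the complex II factor Sdhaf1. Uqcr11, a small subunit of complex III, had 42.3 CPM in anti-PD-1 neutrophils and 72.5 CPM in isotype neutrophils, a ratio of -0.78 (-1.03 to -0.53). Cox7c of complex IV had 87.4 and 131 CPM, a ratio of -0.59 (-0.77 to -0.41), and Atp5mpl of complex V 79.1 and 118 CPM, a ratio of -0.58 (-0.76 to -0.39). Sdha and Sdhb, the catalytic subunits of complex II, had 39.5 and 39.1 CPM and 53.4 and 53.1 CPM, with intervals of the ratio from -0.27 to 0.31 and from -0.24 to 0.26. Ndufs4, with 33.2 and 28.6 CPM, had a ratio of 0.22 with an interval of -0.11 to 0.55, and Atp5f1, with 123 and 122 CPM, one of 0.02. The count of 19 was 10 with a mean over cells, 9 with stricter gates and 3 with clusters in place of gates, and the median of -0.30 ranged from -0.32 to -0.14 over all 14 alternatives.

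The nuclear member median was below that of all genes on both sides of the Retnlg split. In Retnlg-negative cells 72 of 76 members lay below 0, against 50.8% of all genes, and 21 passed 0.5 lower, against 11.9%. Their median was -0.36, that of all genes -0.01 and that of ribosomal protein genes -0.58. In Retnlg-positive cells 59 of 76 members were lower, against 40.7% of all genes, and 5 passed the size, near the share of 4.2% over all genes. The medians there were -0.17 for the members, 0.06 for all genes and -0.29 for ribosomal protein genes. Markers of cDC2 summed to 45.3 CPM in the anti-PD-1 neutrophil gate and 77.4 CPM in the isotype one, with all 5 detected in each, and cycling markers to 7.12 and 14.8 CPM. Macrophage markers ran the other way, at 85.6 and 67.1 CPM, and so did the immediate early genes Fos, at 1967 and 1363 CPM, and Egr1, at 1209 and 953 CPM. Their part in the neutrophil difference was not tested.

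**Figure D3:**
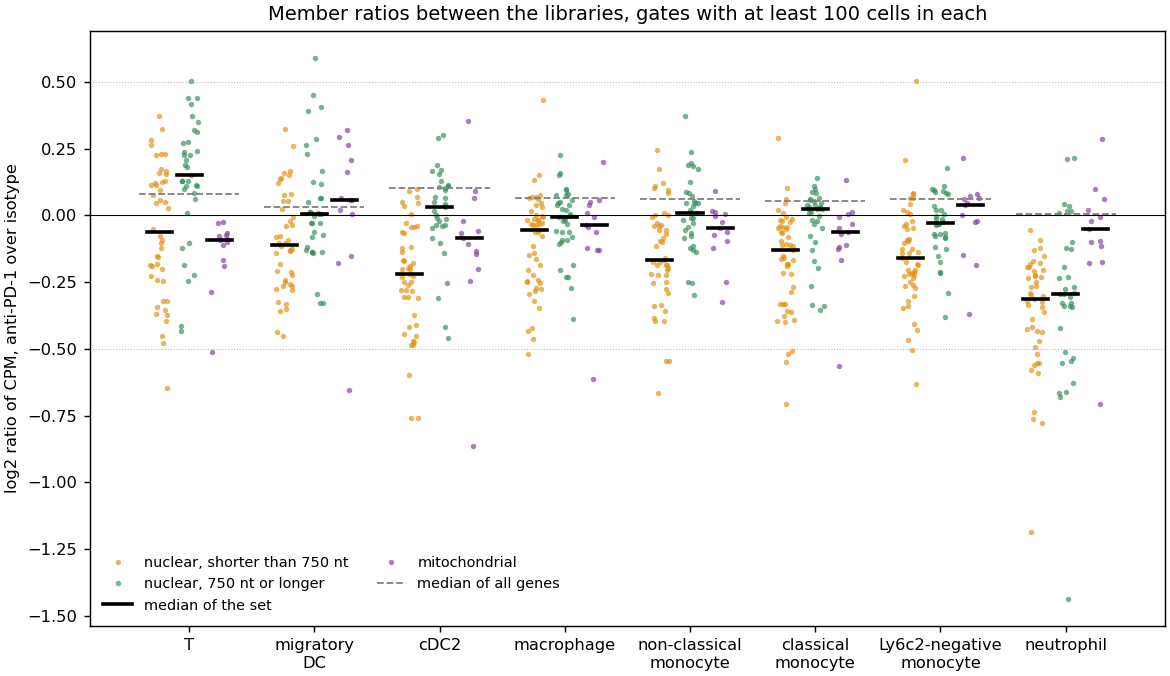
Log2 ratio of CPM, anti-PD-1 over isotype library, 1 point per member with at least 50 UMIs, in the 8 gates with at least 100 cells in each library. Nuclear members are split at 750 nt of transcript length, bars mark medians, dashes the median of all genes and dotted lines 0.5 and -0.5. Nuclear members of neutrophils sit lowest, with medians of -0.31 (shorter) and -0.29 (longer).

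In macrophages 56 of 85 nuclear members lay below 0, and 1, Cox7a1, passed 0.5 lower, against 2.2% of all genes. The median was -0.03, and that of all genes 0.07. Ndufa3 had 186 CPM in anti-PD-1 and 256 CPM in isotype macrophages, a ratio of -0.46 (-0.53 to -0.39), and Atp5k, subunit e of the ATP synthase, 117 and 157 CPM, a ratio of -0.43 (-0.52 to -0.34). Atp5mpl, Cox7c, Cox6c and Atp5e followed with ratios between -0.42 and -0.28. At the other end, Sdhaf4 had 32.2 and 23.8 CPM, a ratio of 0.43 (0.23 to 0.64). Ndufs8 and Ndufs3, core subunits of complex I, had ratios of 0.16 (0.06 to 0.26) and 0.15 (0.05 to 0.25). In classical monocytes 57 of 84 were lower and 4 passed 0.5 lower (Atp5k, Ndufa3, Ndufa5 and Atp5mpl), against 2.2% of all genes. Their median was -0.06, beside 0.05 for all genes, and Atp5k had 81.0 and 132 CPM there, a ratio of -0.71 (-0.82 to -0.60). In Ly6c2-negative monocytes 62 of 84 were lower and 2 passed the size, against 2.24% of all genes, and in non-classical monocytes 53 of 81 were lower and 3 passed it, against 2.49%. Among dendritic cells, 54 of 81 members were lower in cDC2 with 3 past the size (2.46% of all genes), 52 of 80 in cDC1 with 3 past it (2.99%) and 47 of 78 in migratory dendritic cells with 0 past it (5.33%). In each of these 5 gates the nuclear median, between -0.09 and -0.05, lay below that of all genes, between 0.03 and 0.11. Of all genes, 36.7% lay below 0 in macrophages, 36.6% in classical, 37.1% in Ly6c2-negative and 38.2% in non-classical monocytes. The share was 33.1% in cDC1 and in cDC2 and 44.7% in migratory dendritic cells.

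In T cells the members pointed both ways. Of 81 nuclear members, 31 lay below 0 and 50 above it, and 38.7% of all genes lay below 0. Of the members, 1 passed 0.5 lower and 1 passed 0.5 higher, against 4.76% and 8.65% of all genes. The median was 0.10, beside 0.08 for all genes, and it was -0.03 after thinning. Among those at the upper end, Ndufs8, a core subunit of complex I, had 127 CPM in anti-PD-1 T cells and 89.4 CPM in isotype T cells, a ratio of 0.51 (0.32 to 0.70). Sdha, the flavoprotein of complex II, had 108 and 81.1 CPM, a ratio of 0.42 (0.22 to 0.62), and Atp5b 857 and 690 CPM, a ratio of 0.31 (0.24 to 0.38). Among those at the lower end were the small subunits Atp5k, at 88.1 and 138 CPM, a ratio of -0.65 (-0.83 to -0.47), and Cox7c, at 384 and 525 CPM, a ratio of -0.45 (-0.54 to -0.36). Uqcrh had 693 and 866 CPM, a ratio of -0.32 (-0.39 to -0.25). All 13 mitochondrial members were below 0 in T cells, against 38.7% of all genes, with a median of -0.09.

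Of the 2 T cell gates, that of the anti-PD-1 library held more cycling cells. Between the libraries, the median nuclear member ratio was -0.01 among cycling and 0.01 among non-cycling T cells, and the nuclear sum gave -0.04 (-0.06 to -0.02) and -0.05 (-0.06 to -0.03). Markers of CD8 T cells summed to 650 CPM in the T gate of the anti-PD-1 library and 286 CPM in that of the isotype library. In CD8 T cells, 176 and 67 in number, the nuclear sum ratio was -0.02 (-0.05 to 0.004). It was -0.02 (-0.04 to -0.004) in CD4 T cells and 0.05 (0.02 to 0.08) in regulatory T cells. Other mitochondrial genes of the T gate had median ratios of 0.31 over 13 tricarboxylic acid cycle genes, 0.24 over 90 genes for mitochondrial DNA expression and 0.21 over 35 complex assembly genes, beside 0.08 over all genes. Of these, 1, 12 and 5 passed 0.5 higher, against 8.65% of all genes, and 0, 2 and 0 passed 0.5 lower, against 4.76%. Cyc1, the cytochrome of complex III, had 170 and 130 CPM, and cytochrome c, Cycs, 370 and 308 CPM. In neutrophils 15 of 60 genes for mitochondrial DNA expression passed 0.5 lower, against 8.28% of all genes, and 1 passed it higher, against 4.79%, with a median of -0.21, while the 11 tricarboxylic acid cycle genes had a median of 0.02.

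Transcript length moved with these ratios. The median transcript length was 680 nt over the nuclear members, against 2079 nt over 11648 genes with at least 50 UMIs. Across nuclear members, Spearman's rho between length and the ratio ranged over the 13 gates from 0.14 in neutrophils (79 members) to 0.68 in cDC2 (81 members), and it was 0.54 in T cells (81 members). Across genes outside the members it lay between -0.09 and 0.13 in those gates. In T cells the 46 members shorter than 750 nt had a median ratio of -0.06 and the 35 longer ones 0.15. In macrophages the medians were -0.06 and -0.01, and in classical monocytes -0.13 and 0.03. In neutrophils both were low, at -0.31 for 45 shorter members, all of them below 0, and -0.29 for 34 longer ones, of which 27 were below 0. Genes outside the members shorter than 750 nt had medians of 0.07 in T cells, 0.04 in macrophages and -0.07 in neutrophils. In neutrophils 60.9% of these shorter genes and 46.6% of the longer ones were below 0. The part of length in the ratios was not tested.

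**Figure D4:**
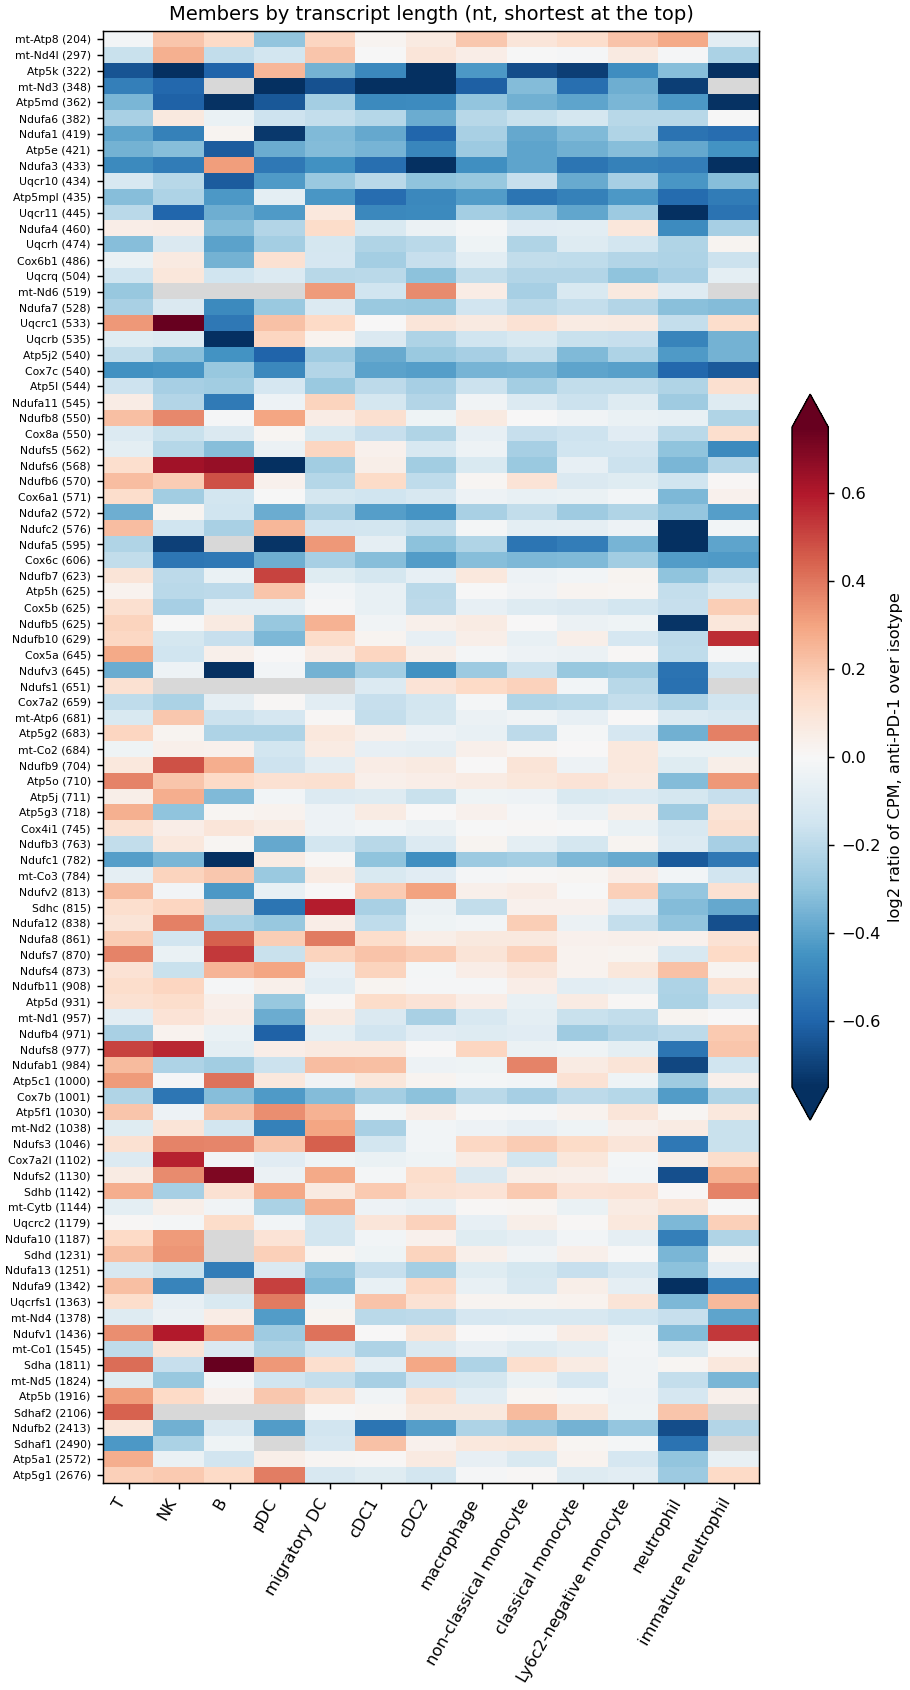
Log2 ratio of CPM, anti-PD-1 over isotype library, of the members (1 line each, those with at least 50 UMIs in 8 or more gates) in the 13 marker gates (1 column each), ordered by transcript length with the shortest at the top, and in grey where under 50 UMIs were counted. Lower values, in blue, gather among short nuclear members in most gates and run through all lengths in neutrophils.

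Of the 92 members with at least 50 UMIs in 8 or more gates, 13 lay below 0 in every such gate and 0 were higher in every one. For the latter count no share over other genes was computed. The 13 are Atp5mpl, Atp5md, Cox7c, Atp5e, Cox6c, Atp5j2, Uqcr10, Ndufv3, Cox7b, Ndufa7 and Ndufa13, with medians over gates from -0.44 to -0.17, and the mitochondrial mt-Nd3 and mt-Nd5, with -0.61 and -0.14. The median length of these 13 was 540 nt, against 719 nt for the other members. Among genes outside the members, 14.7% of those shorter than 500 nt and 3.43% of those from 500 to 750 nt were lower in every such gate. The share was 1.69% from 750 to 1000 nt, 0.429% from 1000 to 2000 nt, 0.486% from 2000 to 4000 nt and 0.335% above that. Atp5k, with a transcript of 322 nt, was lower in 12 of 13 gates, and so was Ndufa3, at 433 nt. Gates of 1 library share its preparation and sequencing, so they do not count as repeats.

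Subunit isoforms known from particular tissues were each counted mainly in a few gates. Cox6a2, the heart and skeletal muscle form of a complex IV subunit, was counted 523 times in 49 anti-PD-1 pDC (1085 CPM) and 852 times in 59 isotype pDC (1794 CPM), a log2 ratio of -0.73 (-0.89 to -0.57). At least 1 UMI was present in 36 of the 49 and 48 of the 59 cells. After each cell was thinned to 1000 UMIs it was present in 26 of 48 and 36 of 59 cells. In macrophages 10 of 1703 and 11 of 1643 cells had a UMI, and in T cells 2 of 544 and 0 of 476. Its highest level in another gate was 13.8 CPM, in isotype natural killer cells, from 7 UMIs in 1 cell. Likewise, all 32 UMIs of isotype neutrophils were in 1 cell, and so were 20 of 28 UMIs of anti-PD-1 cDC2. The common form Cox6a1 was at 307 CPM in pDC of both libraries, against 535 and 548 CPM in macrophages. The pDC gate rests on few cells, with all 6 pDC markers detected in each library, of which the gate required at least 4 in a cell. Macrophage markers summed to 178 CPM there under anti-PD-1 and to 33.7 CPM under isotype, and Adgre1 and Mrc1 were at 0 in both.

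Cox4i2, a form of Cox4 known from lung and from low oxygen, was found in macrophages, at 16.2 CPM in the anti-PD-1 and 14.7 CPM in the isotype library, in 134 of 1703 and 130 of 1643 cells (28 of 1691 and 28 of 1617 after thinning). Ly6c2-negative monocytes had 16.2 and 14.0 CPM and classical monocytes 6.74 and 7.29 CPM. No UMI of it was counted in 544 and 476 T cells, which allows a share of cells with a UMI of up to 0.552% and 0.630%. In neutrophils 0 of 2273 and 1 of 2402 cells had a UMI, and the count of 0 allows up to 0.132%. Cox7a1, the muscle form of Cox7a whose promoter window is printed above, was at 6.12 and 8.76 CPM in macrophages, a ratio of -0.52 (-0.93 to -0.12), and at 5.66 and 8.77 CPM in Ly6c2-negative monocytes. The common Cox7a2 stood at 448 and 453 CPM in macrophages. Cox6b2, the testis form of Cox6b, was at 13.9 and 16.9 CPM in cDC2, in 44 of 297 and 54 of 302 cells, and at 9.44 and 9.38 CPM in classical monocytes. Ndufa4l2, known as a gene induced by low oxygen, was counted 37 times in 12 anti-PD-1 macrophages and 53 times in 16 isotype macrophages.

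**Figure D5:**
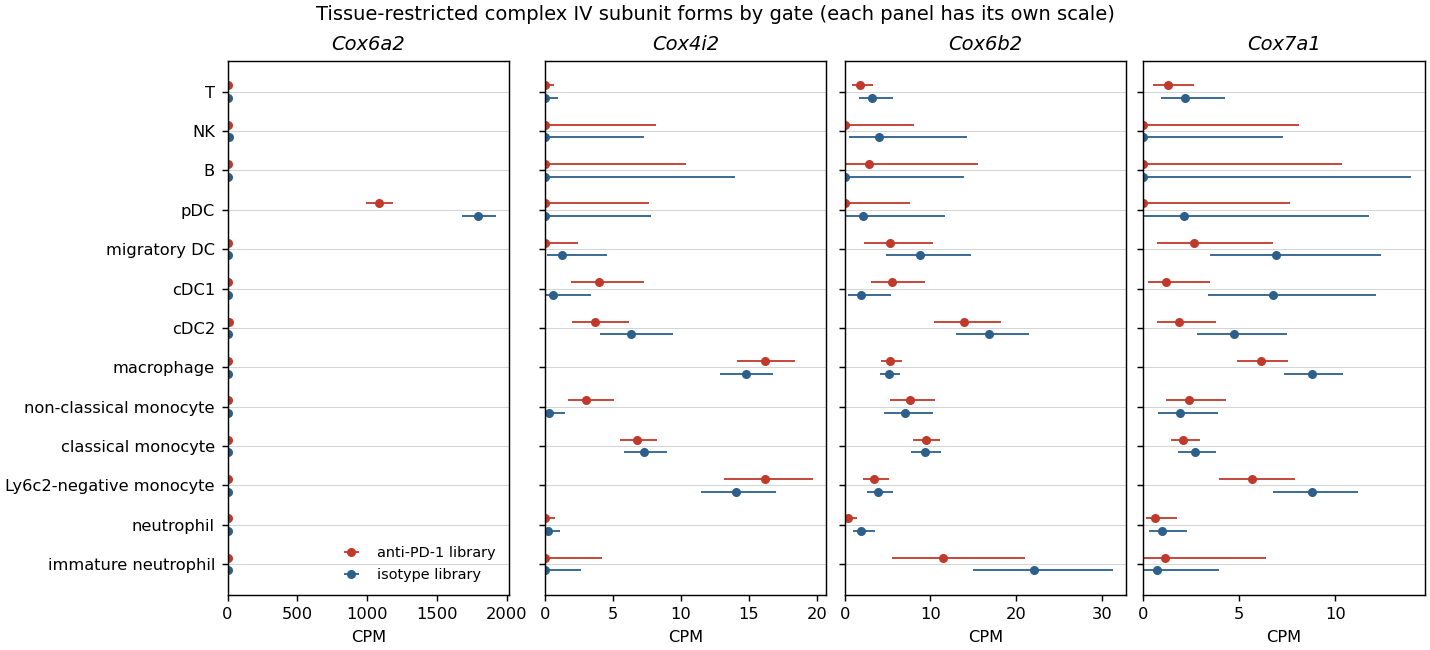
CPM of subunit isoforms of restricted tissue expression in the marker gates of the anti-PD-1 and the isotype library, with exact 95% intervals and a scale of its own in each panel. Cox6a2 stands in pDC at 1085 and 1794 CPM, and Cox4i2 in macrophages and Ly6c2-negative monocytes at 14.0 to 16.2 CPM.

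Migratory dendritic cells held the highest level of Sdhaf1 among the 8 larger gates and, leaving out neutrophils, the lowest of Ndufa4. Sdhaf1 was at 189 CPM in anti-PD-1 and 206 CPM in isotype migratory dendritic cells, against 36.2 and 34.3 CPM in macrophages and 81.0 and 109 CPM in T cells. Ndufa4 was at 92.6 and 84.1 CPM in migratory dendritic cells, against 369 and 390 CPM in classical monocytes and 372 and 359 CPM in T cells.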

How the data were processed

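Leukocytes of 2 libraries, 1 anti-PD-1 and 1 isotype, were profiled with 10x Genomics 3′ v2 chemistry after digestion of the tumours, bead enrichment of CD45-positive cells and a sort for live cells, per the labels' protocols. The deposited matrices hold raw UMI counts per gene and barcode, made by the authors with Cell Ranger 5.0.1 per the file headers and 2.1.1 per the submitters' processing notes, which also name the build mm10.

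A barcode was kept where it had 500 or more UMIs and 200 or more genes and where mitochondrial genes held no more than 10% of its UMIs. Doublets were scored per library with scrublet in scanpy 1.11.5 (expected rate 0.06), and those above 0.25, a threshold chosen after the scores were seen, were removed: 295 anti-PD-1 (2.95%) and 303 isotype barcodes (3.17%). Cells were gated by raw UMIs of marker genes, and counts were summed per gate and library. Ratios are log2 of counts per 1000000 (CPM), anti-PD-1 over isotype unless another pair is named, with exact conditional binomial 95% intervals. Members with at least 50 UMIs over the cells compared were counted, and 0.5 on the log2 scale was the size for a call. This is a rule of size, not a test. A count of 0 was given a limit of 3 counts. Lengths are medians over each gene's coding transcripts. Processed pseudogenes and near-identical copies may take reads of some nuclear members.

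The members and lists were chosen with earlier results of these data known. Genes named are the 2 with most UMIs per complex, those with the widest range over gates, those most different between libraries by the interval bound nearest 0 and the isoform pairs, and the others were chosen after their values were seen. The splits of neutrophils by Retnlg and of T cells by cycling markers, and those by transcript length, were added after the data were seen. Alternatives were other mitochondrial limits, no doublet removal, per-cell means, thinning to 1000 UMIs, stricter gates, clusters (2000 variable genes, 30 components, 15 neighbours, resolution 1), CPM without mitochondrial and ribosomal protein genes, TMM scaling (edgeR 4.0.16 in R 4.3.3) and lower UMI minimums. The ratio and sum computation was tested on simulated data. Intervals came from scipy 1.17.1 and plots from matplotlib 3.10.9, under Python 3.11.15.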

Additional observations from a re-analysis of the deposited data

Results flagged for a closer look

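The median log2 ratio of the nuclear members, anti-PD-1 over isotype, was 0.10 in the T cell gate and -0.30 in the neutrophil gate. Over all genes the medians were 0.08 and 0.01. The T cell members thus lay near the median of their gate and the neutrophil members below theirs. Over 14 alternatives the member median ranged from -0.03 (after thinning) to 0.15 in T cells and from -0.32 to -0.14 in neutrophils. With 1 library per treatment the difference between the cell types was not tested. Within the T cell gate the median was -0.01 in cycling and 0.01 in non-cycling cells, and within the neutrophil gate it was -0.36 in Retnlg-negative and -0.17 in Retnlg-positive cells.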

How the results depend on the processing

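No paired analysis was possible because each treatment has 1 library. Of 14 alternatives, 2 (ratios centred by length band, and members of at least 750 nt only) were chosen after seeing the data, and no sum or median past 0.5 arose or changed sign. Signs of smaller ratios did change, among them the nuclear sum and the nuclear median (-0.033 after thinning) of T cells, the mitochondrial sums of macrophages and neutrophils, and sums or medians of other gates. The following values, log2 ratios of anti-PD-1 over isotype sums, moved beyond their counting interval. The nuclear sum in T cells, macrophages and neutrophils, 0.001, -0.10 and -0.27 as reported, was -0.014, -0.070 and -0.225 as a mean over cells, -0.021, -0.071 and -0.213 after thinning, 0.028, -0.139 and -0.177 in clusters, and 0.130, -0.035 and -0.221 with members of at least 750 nt. In neutrophils it was -0.209 with stricter gates. In T cells and macrophages it was -0.040 and -0.140 without mitochondrial and ribosomal protein genes, and -0.082 and -0.157 with TMM. The mitochondrial sum in T cells, macrophages and neutrophils was -0.089, -0.036 and -0.124 with a limit of 5% mitochondrial UMIs, and -0.044, -0.038 and 0.104 in clusters. In neutrophils it was -0.021 with a limit of 20%, -0.001 without a limit and 0.010 with stricter gates. In T cells it was -0.086 after thinning, -0.150 without mitochondrial and ribosomal protein genes and -0.192 with TMM. In macrophages these were 0.007, -0.069 and -0.086, and 0.022 as a mean over cells.

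Nuclear members past 0.5 lower numbered 1, 1 and 19 in T cells, macrophages and neutrophils as reported. In neutrophils they numbered 10 as a mean over cells, 9 with stricter gates, 3 in clusters and 9 with members of at least 750 nt. In T cells they numbered 2 without doublet removal, as a mean over cells or without mitochondrial and ribosomal protein genes, 3 after thinning or with a minimum of 10 UMIs, 4 with TMM or a minimum of 1 UMI, 5 with length-centred ratios and 0 with members of at least 750 nt. In macrophages they numbered 2 in clusters, with TMM or without mitochondrial and ribosomal protein genes, and 0 without doublet removal or with members of at least 750 nt. The cause of these shifts was not tested. Without mitochondrial and ribosomal protein genes in the total, nuclear members took 3.175% and 3.265% of anti-PD-1 and isotype UMIs in T cells, 3.215% and 3.543% in macrophages and 0.8201% and 1.002% in neutrophils. Without a mitochondrial limit, mitochondrial members took 0.5036% and 0.5037% in neutrophils and 1.449% in isotype macrophages. TMM scaling shifted all ratios by -0.11 in cDC1 and -0.10 in cDC2, and by less in the other gates. Thinning left out 216 anti-PD-1 and 302 isotype neutrophils. With 1 library per treatment, the spread between mice is unknown, and gates under 100 cells limit B cells, natural killer cells and pDC most.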
